A study of Mus musculus with 12 samples.

Results

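The set described here holds the reported NF-kB targets and chemokines Nfkbia, Tnfaip3, Ccl2, Ccl7, Cxcl1, Cxcl5, Il6, Csf1, Vcam1 and Icam1. They were chosen by name, with earlier results of these data known, and are 10 of the 24318 genes in the deposited table. All 10 were found, and 8 of the 10 passed the filter on low counts that preceded the test. Cxcl5 and Il6 did not pass. Icam1 passed only through its vehicle libraries, so the counts of lower members below leave it out or name it. With the electrophile diethyl maleate (DEM), the inhibitor gene Tnfaip3 and the adhesion gene Vcam1 fell in cells with and without the tethered heterodimer T-N2G. The chemokine gene Cxcl1 fell in cells with T-N2G. In mock cells its log2 difference of -0.81 missed the threshold (edgeR adjusted p = 0.0547) and passed it with a block for the replicate number (edgeR adjusted p = 0.0180). The effects on Cxcl1 in the 2 populations were not called different. The growth factor gene Csf1 was higher with T-N2G than without it under DEM. Apart from the value named, these calls are from the fit without the block. Those for Tnfaip3 in mock cells, Cxcl1 in T-N2G cells and Csf1 were lost in 5, 2 and 4 fits that left out 1 library. Those fits had no block. With the block and every library kept, the adjusted p values of edgeR were 7.8e-06, 0.00392 and 1.26e-08. The IkB gene Nfkbia was not called in any comparison.

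The cells were immortalized mouse embryonic fibroblasts of genotype MafF-/-::MafG-/-::MafK-/-, which have no small Maf protein, the obligate partner with which the stress factor Nrf2 binds DNA. Mock cells were compared with cells expressing T-N2G (spelled T-NG2 in the genotype field), a tethered Nrf2-MafG heterodimer, in which Nrf2 carries its own partner. Diethyl maleate (DEM), which depletes glutathione, was given to each population at 100 µM for 12 h, or vehicle in its place, which gives 4 groups of 3 libraries, named by population and treatment (mock DEM, for example). The small Maf deletion is shared by all groups, so every comparison is between small Maf-deficient cells, and no wild-type cell enters. The labels name neither the promoter that drives T-N2G nor whether the T-N2G cells are 1 clone. Nor do they tell separate cultures from repeat libraries of 1 culture, so p-values measure only the spread between these libraries.

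NF-kB is a family of dimeric transcription factors held in the cytoplasm by IkB proteins such as the product of Nfkbia. Signals from receptors for tumour necrosis factor, interleukin-1 and microbial products activate the IKK kinase, which marks IkB for destruction and lets the dimers enter the nucleus. There they induce chemokines, cytokines and adhesion molecules, and also their own inhibitors Nfkbia and Tnfaip3, and fibroblasts are a known source of these products.

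Library totals lay between 18863560 and 23095692 fragments. Levels between groups are given as CPM, fragments relative to the effective library size, and levels between genes as FPKM, which also corrects for transcript length. Mafg, a part of T-N2G, lay at 0.513 ± 0.0394 CPM (SD, n = 3) in mock vehicle and 0.876 ± 0.0563 CPM in mock DEM, against 137 ± 27.9 CPM in T-N2G cells with vehicle and 121 ± 22.2 CPM with DEM. Nfe2l2, the Nrf2 gene, exceeded its mock level 11.3-fold in T-N2G cells with vehicle (edgeR adjusted p = 3.15e-07), and both genes separate the T-N2G libraries from the mock libraries. Maff and Mafk, which T-N2G does not contain, were not called (edgeR adjusted p = 0.992 and 0.904 with vehicle). All 12 fibroblast markers had fragments, with a summed level of 4478 to 5918 FPKM over the libraries. Of 11 macrophage and leukocyte markers 8 had a fragment and their summed level was 3.36 to 5.46 FPKM, with Adgre1, Tyrobp and Cx3cr1 at 0 in every library. The epithelial markers summed to 3.28 to 17.8 FPKM and those of smooth muscle and pericytes to 692 to 1095 FPKM. The fibroblast sum was lowest in T-N2G DEM, at 4478 to 4981 FPKM against 5275 to 5918 FPKM in the other groups, and its part in the results was not tested. In bulk RNA, fewer cells of a type and less RNA per cell cannot be told apart.

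Promoter windows of 300 bases, from 250 before to 50 after the start site, were at hand from RefSeq (GRCm38.p6) for 6 of the 10 genes: Nfkbia, Tnfaip3, Cxcl1, Il6, Csf1 and Icam1. The 250 bases before the start site are shown for 4 of them, since they span members with and without a called change, each written on the strand of the gene and ending just before its annotated start site. Capitals mark matches to the NF-kB consensus on either strand, and the position of a match is that of its leftmost base, counted back from the start site.
Nfkbia promoter, chr12:55492648-55492897, minus strand: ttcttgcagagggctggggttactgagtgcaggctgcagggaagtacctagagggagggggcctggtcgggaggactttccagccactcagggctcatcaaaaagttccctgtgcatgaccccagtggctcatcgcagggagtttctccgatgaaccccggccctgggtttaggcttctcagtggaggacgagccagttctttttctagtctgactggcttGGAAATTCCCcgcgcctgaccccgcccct
Tnfaip3 promoter of start site 1, chr10:19015411-19015660, minus strand: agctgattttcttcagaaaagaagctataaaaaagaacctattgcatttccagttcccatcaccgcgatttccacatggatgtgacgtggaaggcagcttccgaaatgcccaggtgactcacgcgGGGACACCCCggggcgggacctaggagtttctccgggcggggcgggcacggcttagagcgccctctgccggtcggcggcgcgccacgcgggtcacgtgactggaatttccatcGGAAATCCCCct
Cxcl1 promoter, chr5:90890995-90891244, plus strand: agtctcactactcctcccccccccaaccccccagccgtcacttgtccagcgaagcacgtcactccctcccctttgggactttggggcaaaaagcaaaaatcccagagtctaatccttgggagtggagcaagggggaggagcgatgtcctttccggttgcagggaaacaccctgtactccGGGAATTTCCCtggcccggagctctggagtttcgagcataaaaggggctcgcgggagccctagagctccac
Csf1 promoter, chr3:107760470-107760719, minus strand: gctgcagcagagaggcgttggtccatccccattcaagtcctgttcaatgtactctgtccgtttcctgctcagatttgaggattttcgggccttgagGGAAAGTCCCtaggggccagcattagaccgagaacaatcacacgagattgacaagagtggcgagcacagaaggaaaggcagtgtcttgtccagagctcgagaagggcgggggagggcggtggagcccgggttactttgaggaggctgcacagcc
The NF-kB consensus, GGGRNWYYCC, occurs in 1480 of 32851 RefSeq promoter windows of this length (4.51%) and in a window of 5 of these 6 genes. The first share counts windows and the second counts genes, of which Tnfaip3 has 2 windows. The genes were chosen as reported NF-kB targets, so the second share is a description only. Nfkbia holds 1 match, at base -29. Tnfaip3 holds 2 at its start site 1, at bases -125 and -12, and none at its start site 2. Cxcl1 holds 2 overlapping matches, at bases -71 and -70, shown as 1 run of capitals. Il6 holds 1 at base -44 and Csf1 holds 1 at base -154. The Icam1 window holds no match. The AP-1 motif TGANTCA, searched on both strands and found in 7.81% of windows, is at base -136 of Tnfaip3 and base -249 of Il6. The core of the antioxidant response element, TGACNNNGC, which is the site of Nrf2 with a small Maf protein and is found in 12.4% of windows, is at base -13 of Nfkbia. No match to one motif overlapped a match to another in these windows. A match describes letters only and is not evidence that a factor was bound.

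By FPKM, Csf1 was the highest of the 10 in every group, above every library of the next gene. It stood at 142 ± 19.5 FPKM (SD, n = 3) with vehicle and 124 ± 12.5 FPKM with DEM in mock cells, and at 174 ± 31.4 and 217 ± 44.6 FPKM in T-N2G cells. Vcam1, Ccl7, Ccl2 and Nfkbia followed at group means of 19.8 to 49.2 FPKM, and neighbours in this part of the order overlapped in range except Ccl7 above Nfkbia in T-N2G vehicle. Tnfaip3 and Cxcl1 came next, at 0.896 to 2.87 FPKM. Icam1, Il6 and Cxcl5 stood lowest in each group, at 0.0106 to 0.282 FPKM.

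**Figure D1:**
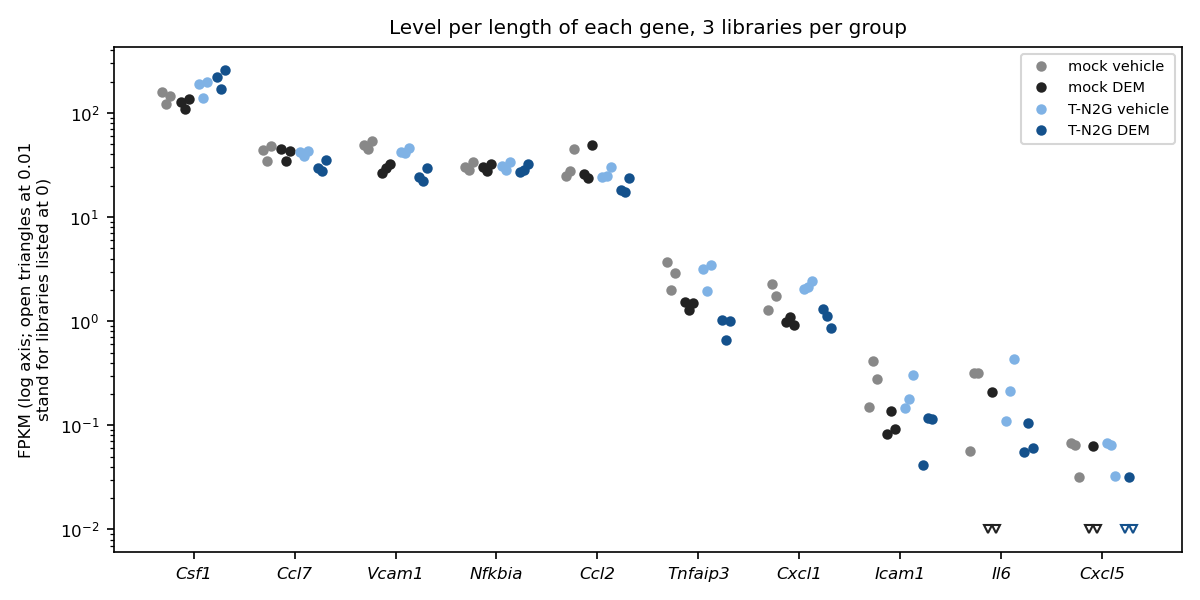
FPKM per library on a log axis for the 10 genes, ordered by their mean, with each library as a point coloured by group and open triangles for libraries listed at 0. Csf1 lies above every other gene in each group, and Icam1, Il6 and Cxcl5 lie below 1 FPKM.

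Of the 2 inhibitors, Nfkbia, which encodes IkB-alpha, stood at 41.7, 39.4 and 46.4 CPM in mock vehicle and 42.1, 38.2 and 44.5 CPM in mock DEM (replicates 1, 2 and 3). In T-N2G vehicle it stood at 42.6, 39.8 and 46.4 CPM and in T-N2G DEM at 37.7, 39.3 and 44.9 CPM. The 4 groups overlap throughout. The DEM effect on the log2 scale was -0.03 ± 0.09 (SE) in mock cells, with a 95% interval of -0.24 to 0.18, and -0.08 ± 0.09 in T-N2G cells, with an interval of -0.29 to 0.13 (quasi-likelihood test of edgeR, p adjusted by Benjamini-Hochberg over all tested genes, adjusted p = 0.856 and 0.585). No comparison called Nfkbia, with or without a block for the replicate number.

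Tnfaip3 encodes A20, a ubiquitin-editing enzyme that ends NF-kB signalling. It stood at 15.8, 8.59 and 12.3 CPM in mock vehicle and 6.52, 5.45 and 6.30 CPM in mock DEM. The T-N2G vehicle libraries stood at 13.5, 8.29 and 14.7 CPM and the T-N2G DEM libraries at 4.36, 2.76 and 4.26 CPM. The vehicle and DEM libraries do not overlap in either population, and replicate 2 was the lowest in each group. DEM lowered Tnfaip3 2.00-fold in mock cells (log2 fold change -1.0 ± 0.26, edgeR adjusted p = 0.0244) and 3.21-fold in T-N2G cells (log2 fold change -1.68 ± 0.27, edgeR adjusted p = 0.00186). Without the block, the mock call was lost when mock DEM replicate 1, 2 or 3 or mock vehicle replicate 1 or 3 was left out (adjusted p up to 0.0867). Neither call held with replicates 1 and 2 alone without the block. With the block both held on all libraries (edgeR adjusted p = 7.8e-06 in mock and 3.86e-08 in T-N2G cells). They also held with the block on replicates 1 and 2 alone (edgeR adjusted p = 0.000103 and 2.74e-06). With vehicle, mock and T-N2G cells had means of 12.2 ± 3.60 and 12.2 ± 3.42 CPM. Under DEM the T-N2G libraries were all below the mock libraries (log2 fold change -0.69 ± 0.28, edgeR adjusted p = 0.249), and a fit with a block for the replicate number gave adjusted p = 0.00246, within a range over alternatives of 0.00019 to 0.697. The difference between the DEM effects was -0.68 ± 0.37 and was not called (edgeR adjusted p = 1, or 0.0503 with the block).

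The FPKM of Nfkbia exceeded that of Tnfaip3 by 11.3-fold in mock vehicle and 20.9-fold in mock DEM, as means of the ratios within each library, and by 11.4-fold in T-N2G vehicle and 33.8-fold in T-N2G DEM. The ratio in the DEM libraries of each population did not overlap that of its vehicle libraries.

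**Figure D2:**
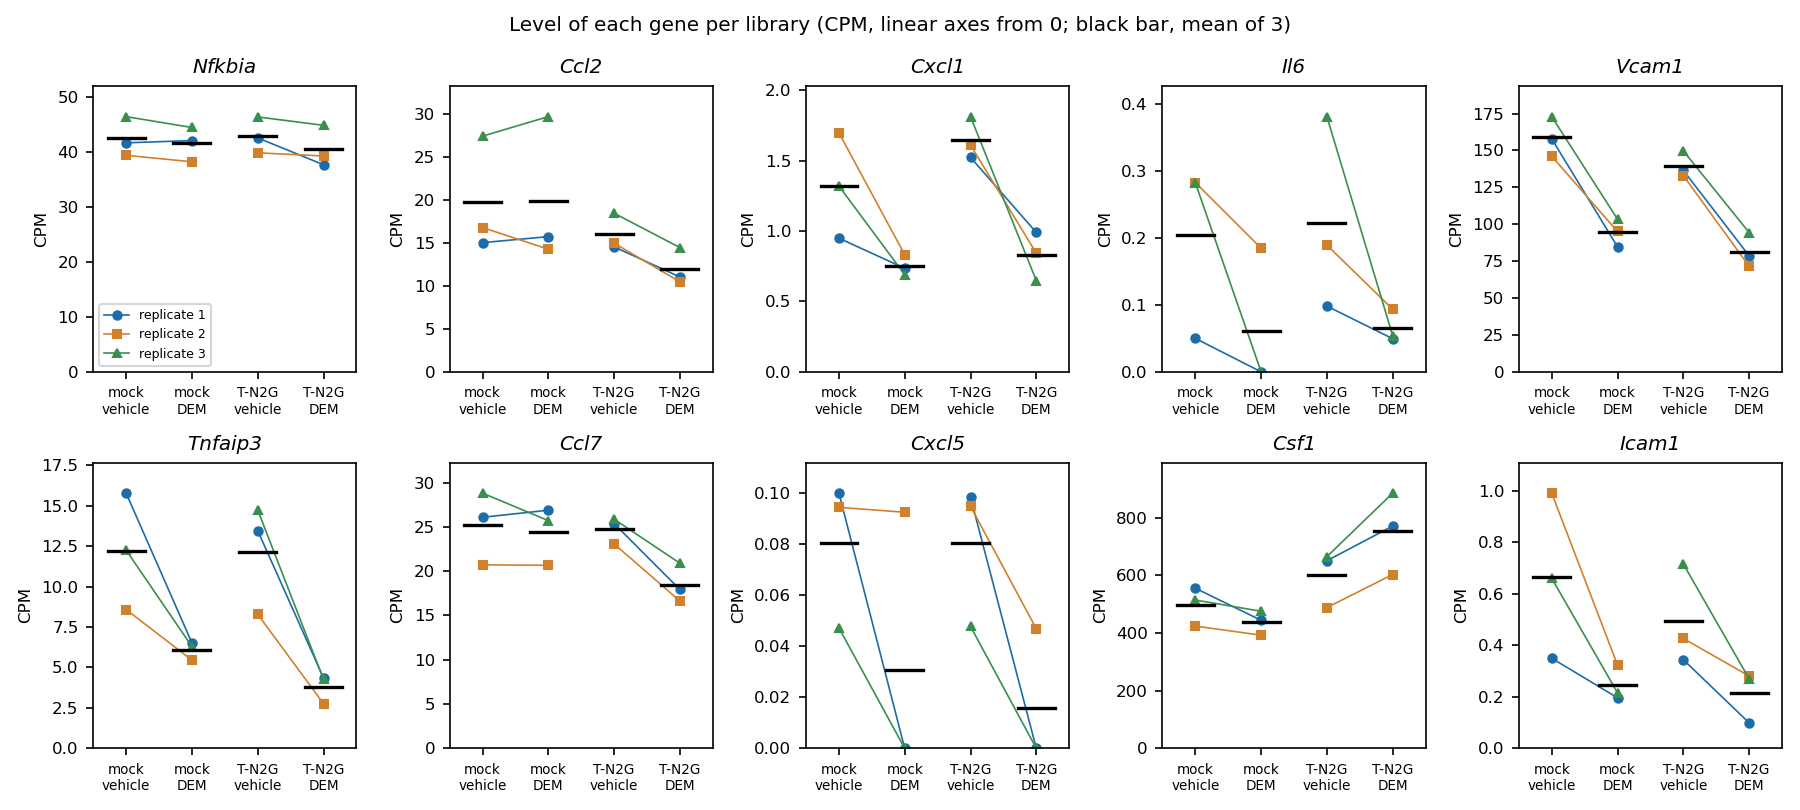
CPM of each of the 10 genes in the 4 groups, with 1 point per library, thin lines between libraries of the same replicate number and a black bar at the mean of 3. For Tnfaip3 the DEM libraries, 6.52 CPM and below, lie under the vehicle libraries, 8.29 CPM and above, and Nfkbia shows no such gap.

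Ccl2 and Ccl7 are neighbouring CC chemokine genes on chromosome 11 that attract monocytes, and their products bind shared receptors. Ccl2 stood at 15.0, 16.8 and 27.4 CPM in mock vehicle and 15.7, 14.3 and 29.7 CPM in mock DEM. In T-N2G vehicle it stood at 14.5, 15.0 and 18.5 CPM and in T-N2G DEM at 11.0, 10.5 and 14.5 CPM. Replicate 3 was the highest in every group. The T-N2G DEM libraries lay below the T-N2G vehicle libraries, with the nearest libraries apart by less than the rounding shown. No DEM effect on Ccl2 was called, at 0.01 ± 0.28 in mock and -0.42 ± 0.29 in T-N2G cells (edgeR adjusted p = 0.980 and 0.354). With the block the T-N2G effect was called (adjusted p = 0.00988, range over alternatives 0.00151 to 0.589). Under DEM the T-N2G to mock difference of Ccl2 was -0.74 ± 0.29, which was not called without the block (edgeR adjusted p = 0.233) and called with it (adjusted p = 0.000335, range over alternatives 1.29e-06 to 0.717). Without mock DEM replicate 3 that difference was -0.33 (edgeR adjusted p = 0.717).

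Ccl7 stood at 26.1, 20.7 and 28.8 CPM in mock vehicle and 26.9, 20.7 and 25.7 CPM in mock DEM. The T-N2G vehicle libraries stood at 25.4, 23.1 and 25.9 CPM and the T-N2G DEM libraries at 17.9, 16.6 and 20.9 CPM. The T-N2G DEM libraries were below all T-N2G vehicle libraries, while mock DEM replicate 2, at 20.7 CPM, lay within the range of T-N2G DEM. The DEM difference of Ccl7 was -0.05 ± 0.13 in mock cells (edgeR adjusted p = 0.855) and -0.42 ± 0.14, 1.34-fold lower, in T-N2G cells (edgeR adjusted p = 0.0510, 0.000189 with the block, 1.66e-05 to 0.150 over alternatives), and DESeq2 called it (adjusted p = 0.0272). The difference of those effects, -0.38 ± 0.19, was not called (edgeR adjusted p = 1, or 0.0577 with the block). Under DEM the T-N2G to mock difference of Ccl7 was -0.40 ± 0.14 (edgeR adjusted p = 0.158, 0.000822 with the block, 7.39e-05 to 0.420 over alternatives). The FPKM of Ccl7 divided by that of Ccl2 in the same library averaged 1.35 in mock vehicle and 1.36 in mock DEM, with libraries from 0.875 to 1.75, while in T-N2G cells it averaged 1.58 with vehicle and 1.57 with DEM, with libraries from 1.42 to 1.76. The next gene on the other side of Ccl7, Ccl11, lay at 0.0176 to 0.0384 FPKM in the group means.

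Cxcl1 and Cxcl5 encode CXC chemokines that attract neutrophils. Cxcl1 stood at 0.949, 1.70 and 1.32 CPM in mock vehicle and 0.736, 0.832 and 0.690 CPM in mock DEM. In T-N2G vehicle it stood at 1.52, 1.61 and 1.81 CPM and in T-N2G DEM at 0.990, 0.843 and 0.648 CPM. Vehicle and DEM libraries do not overlap in either population. With 12 to 38 fragments a library, its counting error is larger than that of the genes above. DEM lowered Cxcl1 1.98-fold in T-N2G cells (log2 fold change -0.99 ± 0.25, edgeR adjusted p = 0.0195, or 0.00392 with the block). The call without the block was lost without T-N2G DEM replicate 3 or T-N2G vehicle replicate 3 (adjusted p up to 0.0697). With replicates 1 and 2 alone it was lost too (adjusted p = 0.226, or 0.0585 with the block). In mock cells the difference was -0.81 ± 0.26 (edgeR adjusted p = 0.0547, or 0.0180 with the block, 0.0180 to 0.265 over alternatives). The 2 effects differed by -0.17 ± 0.36, with an interval of -1.01 to 0.66. The neighbours of Cxcl1 on chromosome 5, Cxcl2 and Cxcl15, were at or near 0 in all groups.

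Cxcl5 had 2, 2 and 1 fragments in mock vehicle, 0, 2 and 0 in mock DEM, 2, 2 and 1 in T-N2G vehicle and 0, 1 and 0 in T-N2G DEM. Its vehicle to DEM ratio was 2.61 in mock cells, with a 95% counting interval of 0.427 to 27.4, and 4.82 in T-N2G cells, with an interval of 0.539 to 228. These exact intervals cover counting error only. Both include 1, so no difference was established at this depth.

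Il6, the cytokine that drives the acute-phase response, had 1, 6 and 6 fragments in mock vehicle and 0, 4 and 0 in mock DEM, and 2, 4 and 8 in T-N2G vehicle and 1, 2 and 1 in T-N2G DEM. The summed counts, 13 against 4 in mock and 14 against 4 in T-N2G cells, gave ratios of 3.39 (95% counting interval 1.05 to 14.3) and 3.37 (1.06 to 14.1). In mock vehicle replicates 2 and 3 held most of the fragments, and without the filter edgeR did not call either effect (adjusted p = 0.355 and 0.327).

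Csf1 encodes macrophage colony-stimulating factor, which sustains macrophages. It stood at 556, 424 and 515 CPM in mock vehicle and 444, 393 and 476 CPM in mock DEM. The T-N2G vehicle libraries stood at 651, 489 and 665 CPM and the T-N2G DEM libraries at 772, 603 and 886 CPM. Every T-N2G DEM library lay above every mock DEM library, and replicate 2 was lowest in each group. Csf1 was the only tested member called higher in T-N2G cells, relative to mock cells under DEM, in the fit without the block, 1.72-fold (log2 fold change 0.78 ± 0.16, edgeR adjusted p = 0.0131). Without the block, the call was lost without mock DEM replicate 1 or 2 or T-N2G DEM replicate 1 or 3 (adjusted p up to 0.0772). It was also lost with replicates 1 and 2 alone without the block (adjusted p = 0.253). With the block it held on all libraries (edgeR adjusted p = 1.26e-08) and on replicates 1 and 2 alone (edgeR adjusted p = 3.81e-07). The DEM difference was -0.19 ± 0.16 in mock and 0.32 ± 0.16 in T-N2G cells, with edgeR adjusted p = 0.455 and 0.175, and with the block 0.0125 and 0.000144 (ranges over alternatives 0.00479 to 0.745 and 2.51e-06 to 0.482). The difference of 0.51 ± 0.22 was not called without the block (edgeR adjusted p = 1) and was called with it (adjusted p = 0.000764, range 5.92e-06 to 1). With vehicle, T-N2G and mock libraries overlapped and the difference of 0.27 ± 0.16 was called with the block alone (edgeR adjusted p = 0.880 without, 0.00602 with, range 0.000304 to 1).

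Vcam1 and Icam1 encode adhesion proteins that hold leukocytes on cells. Vcam1 stood at 158, 146 and 173 CPM in mock vehicle and 84.7, 95.1 and 103 CPM in mock DEM. In T-N2G vehicle it stood at 136, 133 and 150 CPM and in T-N2G DEM at 78.6, 71.5 and 94.4 CPM. The lowest vehicle library exceeded the highest DEM library in both populations. DEM lowered Vcam1 1.68-fold in mock cells (log2 fold change -0.75 ± 0.11, edgeR adjusted p = 0.00174) and 1.71-fold in T-N2G cells (-0.78 ± 0.11, edgeR adjusted p = 0.000736). Both calls held in every fit that left out 1 library and with replicates 1 and 2 alone. The effects differed by -0.03 ± 0.15, with an interval of -0.37 to 0.32. The 6 endothelial markers, of a cell type known for Vcam1, summed to 1.85 to 3.04 FPKM in mock vehicle and 1.29 to 2.22 FPKM in mock DEM, and to 1.98 to 2.86 and 0.989 to 1.58 FPKM in T-N2G cells, against 25.2 to 49.2 FPKM for Vcam1 itself in the group means, and their part in its fall was not tested. The T-N2G to mock differences of -0.19 ± 0.11 with vehicle and -0.21 ± 0.11 under DEM were not called (edgeR adjusted p = 0.880 and 0.390), and with the block were (adjusted p = 0.0410 and 0.00912, ranges over alternatives 0.0197 to 1 and 0.00183 to 0.756).

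Icam1 had 7, 21 and 14 fragments in mock vehicle, 4, 7 and 5 in mock DEM, 7, 9 and 15 in T-N2G vehicle and 2, 6 and 5 in T-N2G DEM. In CPM these are 0.350, 0.991 and 0.660, then 0.196, 0.324 and 0.216, then 0.344, 0.426 and 0.716, and then 0.0990, 0.281 and 0.270. All DEM libraries of a population were below its vehicle libraries, as they were for 16.3% of all tested genes in mock cells and 15.6% in T-N2G cells. The differences of -1.43 ± 0.47 in mock and -1.18 ± 0.52 in T-N2G cells were not called (edgeR adjusted p = 0.0647 and 0.140). With the block they were (adjusted p = 0.00655 and 0.0354, ranges 0.00655 to 0.289 and 0.0354 to 0.489), where 21.9% and 22.2% of all genes were called lower. Icam1 passed the filter only through its vehicle libraries, so the filter itself favoured a fall with DEM. These differences are therefore a description only.

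Counted over the 8 tested members, edgeR called 2 lower and none higher with DEM in mock cells, where it called 6.18% of all genes lower and 7.75% higher. In T-N2G cells it called 3 lower and none higher, against 7.55% lower and 10.1% higher over all genes. Between the populations under DEM 1 member was higher with T-N2G and none lower, against 2.61% and 1.11%. With vehicle none was called, none had an unadjusted p under 0.05, and DESeq2 called none, while edgeR called 0.305% of all genes higher and 0.00802% lower. No member's DEM effect was called as different between populations, against 0.417% of all genes with a higher and 0.0160% with a lower effect in T-N2G cells, with 1 member at an unadjusted p under 0.05 and none by DESeq2. Without Icam1, the median log2 fold change over the other 7 members was -0.19 with DEM in mock cells and -0.42 in T-N2G cells, against -0.01 and -0.00 over all tested genes, and 6 of 7 values were negative in each, against 52.2% and 50.8% of all genes. The T-N2G to mock comparison under DEM shares its libraries with both DEM comparisons. The members were chosen with earlier results of these data known, so these shares describe the members only. Of these 7, 3 in mock cells and 5 in T-N2G cells were lower with no overlap between the DEM and the vehicle libraries, against 16.3% and 15.6% of all genes, and none was higher in that way, against 17.2% and 18.2%. Between the populations under DEM 1 member, Csf1, was higher without overlap and 1, Tnfaip3, lower, against 10.3% and 9.35% of all genes. With the block and again without Icam1, 4 members were called lower and none higher with DEM in mock cells (21.9% and 20.9% of all genes), 5 lower and 1 higher with DEM in T-N2G cells (22.2% and 22.8%), and 4 lower and 1 higher between the populations under DEM (9.32% and 10.3%). With vehicle the block gave 1 member lower and 1 higher (3.24% and 3.06%), and for the difference of DEM effects none lower and 1 higher (0.978% and 1.82%).

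**Figure D3:**
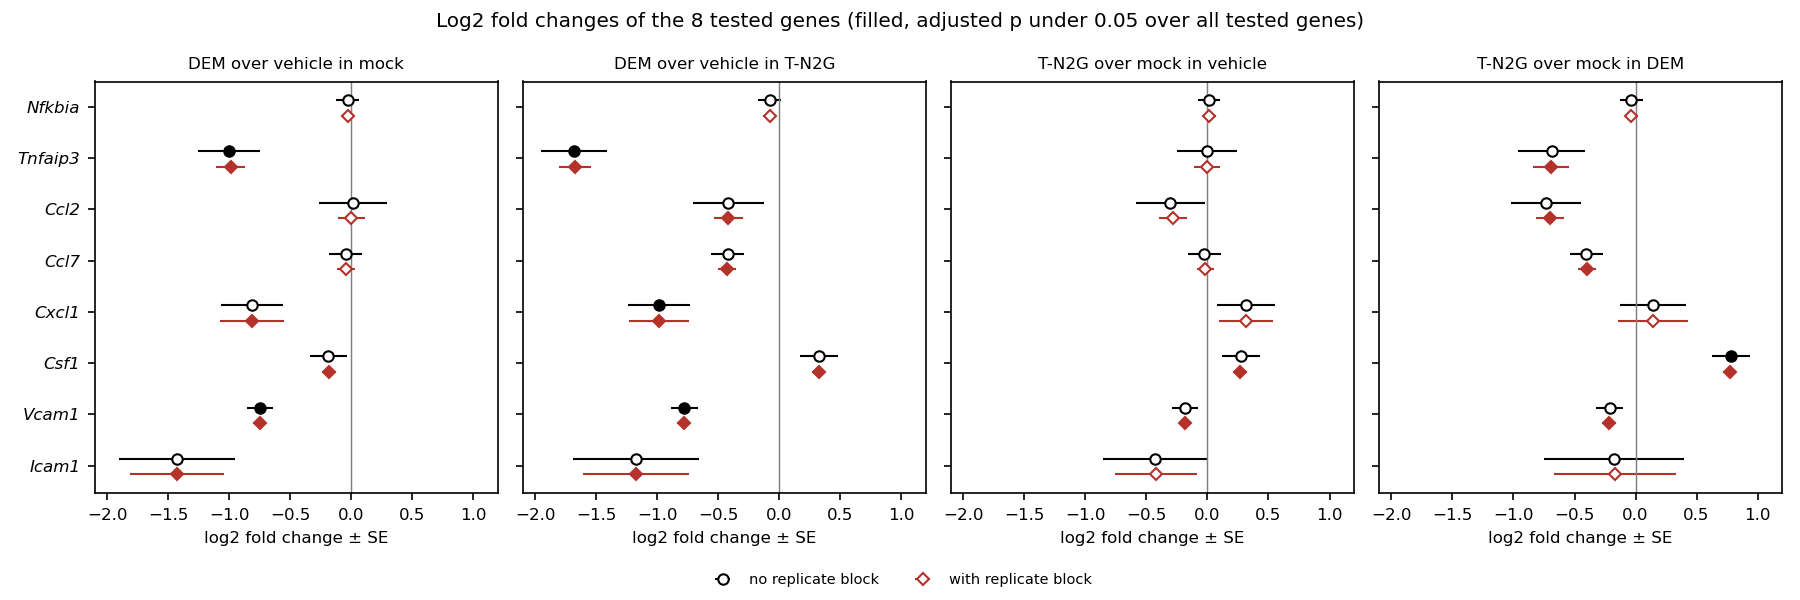
Log2 fold changes of the 8 tested genes in 4 comparisons with approximate standard errors, as circles for the fit without and diamonds for the fit with the replicate block, filled where called. Vcam1 and Tnfaip3 lie below 0 under DEM in both populations, and Csf1 lies at 0.78 under DEM for the T-N2G to mock comparison.

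Replicate number moved with these genes. Replicate 3 was the highest library for all 8 tested members in T-N2G vehicle, against 31.6% of all tested genes, and for 4, 4 and 5 of 8 in mock vehicle, mock DEM and T-N2G DEM, against 26.5%, 32.2% and 31.5%. Replicate 2 was the lowest library for 5 of 8 members in every group, against 33.9 to 36.6% of all genes. Libraries of replicate 3 carry library codes of a separate number series from those of replicates 1 and 2, a series with 1 library in each group. What that series stands for is not stated, and its part in the spread was not tested beyond the fit with the replicate block and the fit on replicates 1 and 2.

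The wider pathway was read from 143 other genes in 8 lists, of which 89 were tested. Called higher and lower were 7 and 5 with DEM in mock cells, 10 and 11 with DEM in T-N2G cells, 2 and 3 between the populations under DEM, and 0 with vehicle and for the difference of DEM effects. As shares of the 89 these are 7.87% and 5.62% with DEM in mock cells, against 7.75% and 6.18% of all genes, 11.2% and 12.4% in T-N2G cells, against 10.1% and 7.55%, and 2.25% and 3.37% between the populations, against 2.61% and 1.11%. The shares in mock cells lie near the background, as does the share raised in T-N2G cells. With vehicle and for the difference 6 of the 89 each had an unadjusted p under 0.05, and DESeq2 called none. With the block, 17 and 16 of the 89 were called higher and lower with DEM in mock cells (20.9% and 21.9% of all genes), 14 and 20 in T-N2G cells (22.8% and 22.2%) and 9 and 21 between the populations under DEM (10.3% and 9.32%). It called 1 and 5 with vehicle (3.06% and 3.24%) and 1 and 3 for the difference of DEM effects (1.82% and 0.978%). The median over the 89 was within 0.05 of 0 in every comparison.

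Of the 5 NF-kB subunits, DEM raised 2 in mock cells and 1 in T-N2G cells (40.0% and 20.0%, against 7.75% and 10.1% of all genes). With the block it raised 3 and 2 (against 20.9% and 22.8% of all genes). Rela, which encodes p65, was 1.19-fold higher with DEM in both (edgeR adjusted p = 0.0199 and 0.0141), and its calls were lost without mock DEM replicate 3 or mock vehicle replicate 1, and without T-N2G vehicle replicate 1. Nfkb2, the precursor of p52, was 1.21-fold higher with DEM in mock cells (edgeR adjusted p = 0.0236, lost without mock DEM replicate 3 or mock vehicle replicate 1 or 2). Under DEM Nfkb2 was 1.28-fold lower in T-N2G than in mock cells (edgeR adjusted p = 0.0122, or 5.67e-05 with the block). Of 24 tested IKK and adaptor genes 3 rose and 1 fell with DEM in mock cells, and 3 rose and 3 fell in T-N2G cells, shares of 12.5% and 4.17% and of 12.5% and 12.5%, against 7.75% and 6.18% and 10.1% and 7.55% of all genes. With the block 4 of these genes rose and 1 fell in mock cells, and 5 rose and 4 fell in T-N2G cells. Each list is short, and its counts are a description of its genes. Myd88, the adaptor of interleukin-1 and Toll-like receptors, was 1.34-fold and 1.35-fold higher (edgeR adjusted p = 0.00398 and 0.00215) and Ripk1, the kinase at the TNF receptor, 1.27-fold and 1.26-fold higher (edgeR adjusted p = 0.00541 and 0.00430). Sharpin, a subunit of the linear ubiquitin ligase, fell 1.44-fold in mock cells (edgeR adjusted p = 0.00170). These calls for Myd88, Ripk1 and Sharpin held when any 1 library was left out. Of 10 tested inhibitors other than the members, 1 fell with DEM in mock cells (10.0%, against 6.18% of all genes) and none was called in T-N2G cells. With the block 1 rose and 3 fell in mock cells, and 3 fell in T-N2G cells. Of 12 tested receptors 0 were called in mock cells and 2 rose in T-N2G cells (16.7%, against 10.1% of all genes). With the block 4 rose and 1 fell in mock cells, and 2 rose and 3 fell in T-N2G cells. The block called 20.9% of all genes higher and 21.9% lower in mock cells, and 22.8% and 22.2% in T-N2G cells.

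Of the 9 ligands that start the pathway only 1, Tnfsf12 (TWEAK), had enough fragments to be tested, at 14.3 to 16.6 FPKM in the group means, and it was not called in any comparison. Tnf, Il1a and Il1b had 0 to 5 summed fragments a group. For the receptors of the member products, Ccr2, the receptor of Ccl2, had no fragment in any library. Csf1r, the receptor of Csf1, had 7 to 18 summed fragments a group, while Itgb1, a partner subunit of the Vcam1 receptor, stood at 882 to 960 CPM in the group means.

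Of 24 tested genes among the other reported targets, 3 rose and 2 fell with DEM in mock cells, and 2 rose and 6 fell in T-N2G cells. The shares were 12.5% and 8.33% in mock cells, against 7.75% and 6.18% of all genes. For T-N2G cells they were 8.33% and 25.0%, against 10.1% and 7.55% of all genes. With the block 5 rose and 6 fell in mock cells (against 20.9% and 21.9% of all genes), and 4 rose and 8 fell in T-N2G cells (against 22.8% and 22.2%). Ptx3, a secreted pattern recognition protein, went from 437 ± 51.4 to 230 ± 15.3 CPM in mock cells and from 475 ± 72.9 to 224 ± 52.1 CPM in T-N2G cells (edgeR adjusted p = 0.00340 and 0.000875). Cflar, which blocks caspase-8, rose 1.46-fold and 1.33-fold (edgeR adjusted p = 0.000895 and 0.00181). Plau, urokinase, fell 1.52-fold with DEM in T-N2G cells (edgeR adjusted p = 0.000937) and under DEM was 1.45-fold below its level in mock cells (edgeR adjusted p = 0.00354). Cebpd, a factor of the acute phase, fell 1.85-fold in T-N2G cells (edgeR adjusted p = 0.00748). Each of these calls held when any 1 library was left out. Of 10 tested chemokines and cytokines outside the set, 1 fell with DEM in mock cells (10.0%, against 6.18% of all genes). In T-N2G cells 1 rose and 2 fell (10.0% and 20.0%, against 10.1% and 7.55%). With the block 1 rose and 4 fell in mock cells (against 20.9% and 21.9% of all genes), and 1 rose and 2 fell in T-N2G cells (against 22.8% and 22.2%). Cxcl10, which attracts T cells, fell 1.98-fold in mock cells (edgeR adjusted p = 0.0217) and 2.17-fold in T-N2G cells (edgeR adjusted p = 0.0107). The mock call for Cxcl10 was lost without mock DEM replicate 1 or 2 or mock vehicle replicate 3. In T-N2G cells Ccl25 rose 2.02-fold (edgeR adjusted p = 0.0180) and Cxcl12 fell 1.81-fold (edgeR adjusted p = 0.0147). Csf3, granulocyte colony-stimulating factor, under DEM had 60 summed fragments in T-N2G and 21 in mock cells, 3.03-fold higher in the former (edgeR adjusted p = 0.0422), a call lost when any of mock DEM replicates 1, 2 and 3 or T-N2G DEM replicates 1 and 2 was left out.

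**Figure D4:**
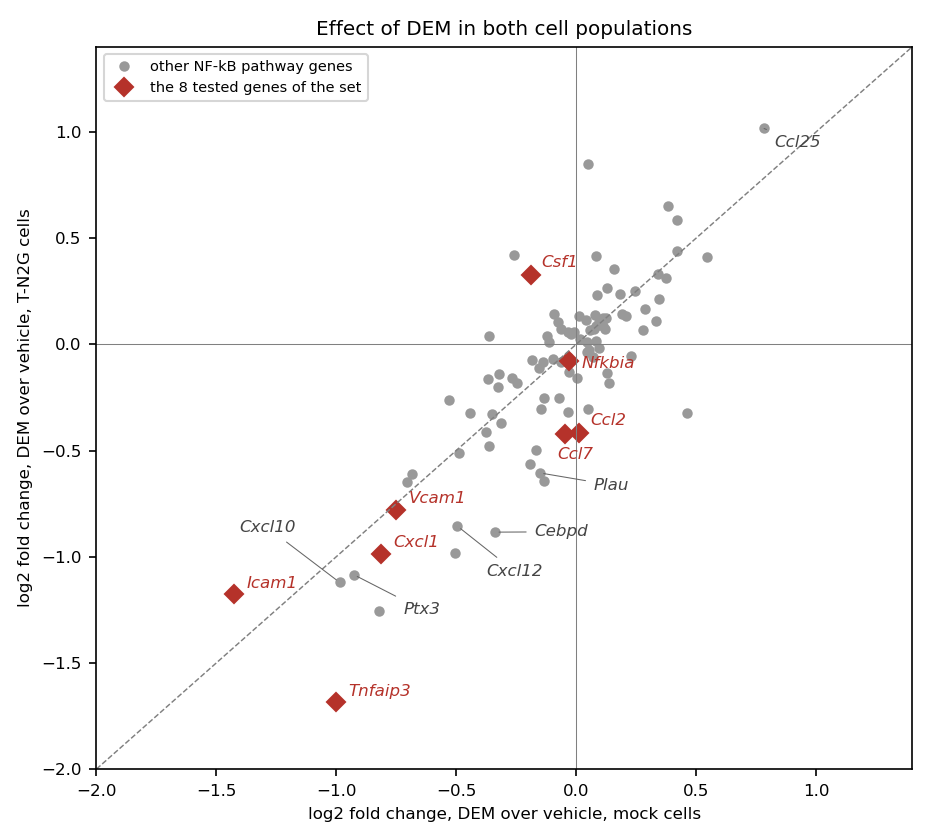
Log2 fold change with DEM in mock cells (x axis) and in T-N2G cells (y axis) for the 8 tested genes of the set (diamonds) and 89 other pathway genes (circles), with the line of equal effects dashed. Tnfaip3 lies at -1.0 and -1.68, and Csf1 lies above the line at -0.19 and 0.32.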

How the data were processed

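Polyadenylated RNA of 12 libraries (4 groups of 3) was extracted with RNeasy Mini and made into libraries with the SureSelect strand-specific kit, per the labels. The submitters' processing notes list bcl2fastq 2.16.0.10, TopHat2 2.0.8b, Cuffdiff 2.1.1 and build mm9, with no role. The annotation and strand setting are not given in the sources used here, so reads of a gene and an overlapping antisense transcript may not be told apart. The authors deposited an estimated count of fragments per gene and library, 98.3% of them whole numbers (tolerance 0), and FPKM per gene and library. The 2 other value columns were not used. All 120 values of the 10 members were whole.

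Counts were rounded and tested with edgeR 4.0.16 in R 4.3.3: genes were kept by filterByExpr over the groups, with a minimum count of 10 and a minimum total of 15 (12469 genes), TMM, 1 quasi-likelihood fit of all 12 libraries, two-sided contrasts, and Benjamini-Hochberg adjustment over all tested genes, with a call at adjusted p under 0.05. Standard errors are approximate, the log2 fold change divided by the root of the F statistic, and intervals use 8 degrees of freedom. The test was tried on simulated counts. Comparisons were DEM with vehicle in each population, T-N2G with mock cells under each treatment, and the difference of the DEM effects.

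Replicate numbers come from the sample titles. Deviations from the group means correlated at 0.361 to 0.631 in 18 pairs of libraries with the same number and at -0.422 to -0.00363 in 36 pairs with different numbers, so the numbers pair the samples, and values with the replicate block stand beside results whose call it changed. Alternatives were the block, DESeq2 1.42.0, RLE factors, library totals, no filter, limma 3.58.1 on log2(FPKM + 1) and log2(FPKM + 0.1), each library left out (without the block), replicates 1 and 2 only (with and without the block), and only the groups compared. The block without a filter was added after the values were seen. The ranges over alternatives include it, and it gives the low end of many of them.

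Named genes were the 10 members, the small Maf genes and Nfe2l2, and per pathway list and comparison up to 3 called genes in each direction with the smallest adjusted p, or the most abundant member of a list without a call. Not all of these are printed. Other genes given as levels (Tnf, Il1a, Il1b, Ccr2, Csf1r, Itgb1, Ccl11, Cxcl2, Cxcl15) were chosen after their values were seen. The members and lists were chosen with earlier results of these data known. Members were matched by symbol to RefSeq tables of GRCm38.p6, another build than the authors', used for promoter windows and gene neighbours only.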

Additional observations from a re-analysis of the deposited data

Results flagged for a closer look

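The effect of DEM on Csf1 differed between the populations in the fit with a block for the replicate number: the log2 effect was higher by 0.51 in T-N2G than in mock cells (edgeR adjusted p = 0.000764, range over alternatives 5.92e-06 to 1). Csf1 was lower with DEM than with vehicle in all 3 mock pairs and higher in all 3 T-N2G pairs of the same replicate number. Without the block the same difference had an adjusted p of 1, and mock and T-N2G libraries each overlapped between vehicle and DEM.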

How the results depend on the processing

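Without the block, edgeR called 0, 1, 2, 3 and 0 of the 8 tested members for T-N2G over mock cells in vehicle and in DEM, DEM in mock cells, DEM in T-N2G cells, and between the effects of DEM. With the replicate block the calls were 2, 5, 5, 7 and 1. Icam1, which passed the filter only through its vehicle libraries, is among those for DEM in mock and in T-N2G cells. With the block and no filter, an alternative chosen after seeing the data, they were 2, 5, 5, 6 and 3. With replicates 1 and 2 only they were 0, 1 and 1 for T-N2G over mock cells in DEM, DEM in mock cells and DEM in T-N2G cells, and with these replicates and the block 1, 5, 4, 5 and 1. Leaving out 1 library gave 0 to 1 for T-N2G over mock cells in DEM, 1 to 3 for DEM in mock cells and 2 to 3 for DEM in T-N2G cells, and 0 for the other comparisons. The upper value of 3 for DEM in mock cells, reached without mock vehicle replicate 1, includes Icam1. So do the counts for DEM in mock cells with the block and no filter, and with the block on replicates 1 and 2. Shares of all genes are given above for the fits with and without the block. DESeq2, RLE factors, library totals, no filter, both limma fits and the groups compared alone kept the counts without the block within 1.5 times. Signs of small log2 differences turned. For Nfkbia, T-N2G over mock cells in vehicle was -0.0013 with library totals. For Ccl7 the same comparison was 0.0513 with replicates 1 and 2 and 0.0558 with the block too, and DEM in mock cells was 0.0183 and 0.0171. For Ccl2, DEM in mock cells was -0.0160 and -0.0171 with limma at pseudocounts of 1 and 0.1, and -0.0896 with replicates 1 and 2, or -0.0914 with the block too. With 1 library left out, Nfkbia ranged from -0.0442 to 0.0831 (T-N2G over mock, vehicle), -0.112 to 0.0157 (DEM), -0.0818 to 0.0374 (DEM effect in mock) and -0.127 to 0.00825 (difference). Over the same fits Tnfaip3 ranged from -0.206 to 0.221 and Ccl2 from -0.469 to 0.00692 for T-N2G over mock in vehicle, and Ccl2 from -0.394 to 0.326 for DEM in mock. Ccl7 ranged from -0.151 to 0.0827 and from -0.168 to 0.0675 for these comparisons. For T-N2G over mock in DEM and for the difference, Cxcl1 ranged from -0.00517 to 0.282 and -0.399 to 0.0147, and Icam1 from -0.430 to 0.165 and -0.149 to 0.610. The Vcam1 difference ranged from -0.145 to 0.0511. None of these was called without the block, and the cause was not tested. Depth limits Cxcl5, Il6, Icam1 and Cxcl1, with 0 to 38 fragments a library.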
